A study of Mus musculus with 66 samples.

Results

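Acetylation of histone H3 at lysine 27 (H3K27ac) was compared between EN and CV organoids, cultures of mouse small intestinal epithelium that had been shifted toward enterocytes or toward stem cells. The comparison took every region of the deposited table, 94469 of 94469 regions, in 3 EN libraries (EN2, EN3 and EN4) and 3 CV libraries (CV3, CV4 and CV5), which are 6 of the 39 libraries in that table. Organoids carried 1 Lgr5 allele with a GFP-DTR insertion (Lgr5 GFPDTR/+) in all 3 cultures, so that every library shares this change at the Lgr5 gene. ENR medium, with EGF, Noggin and R-spondin, supports a mixed epithelium. CV organoids were kept for 5 days in ENR to which 3 µM CHIR99021, an inhibitor of GSK3 that switches on Wnt signalling, and 1 mM valproic acid had been added. EN organoids were kept for 2.5 days without R-spondin. Valproic acid also inhibits histone deacetylases, so a direct action of the drug on acetylation and the change of cell state cannot be told apart in a comparison with CV. The 2 cultures also differed in their length. The labels give no age of the animals and do not say whether numbered libraries came from separate animals or cultures, so p-values measure the spread between these libraries only, which may be technical.

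H3K27ac is laid down by the acetyltransferases Ep300 and Crebbp, removed by histone deacetylases and read by bromodomain proteins. It marks start sites of genes in use and, away from start sites, enhancers in use. In the small intestine, Wnt signals at the crypt base keep Lgr5 stem cells dividing, and cells that leave the crypt become absorptive enterocytes, or secretory goblet, Paneth, enteroendocrine and tuft cells. The nuclear receptors Hnf4a and Hnf4g bind DNA near many genes of the enterocyte, whereas Tcf and Lef proteins carry the Wnt signal to DNA.

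Values are the authors' normalized scores per region, in whole numbers, from ChIPmentation, a form of chromatin immunoprecipitation in which a transposase adds the sequencing adapters. Summed scores were 1345873 to 1406651 for CV, 1372095 to 1506573 for ENR and 1622103 to 1760511 for EN, so every EN library lay above every CV library. EN libraries resembled one another more (Pearson r of log2 scores over regions 0.857 to 0.891, a description) than CV libraries did (0.684 to 0.739). CV3 had a score of 0 in 0.0053% of regions and CV4 in 0.435%, against 12.005% in CV5 and 1.46% to 18.0% in the EN libraries. Bulk libraries cannot tell apart more cells with an acetylated region from more acetylation in each cell. The stem cell markers Lgr5, Ascl2 and Smoc2 had acetylated start sites in CV, where Olfm4 scored 10 to 24, and Sis, Vil1 and Apoa4 of the enterocyte had them in EN, whereas the enterocyte markers Alpi and Anpep stayed at scores of 29 or less in every library. Of 13 markers of mesenchymal, immune, endothelial and neuronal cells, 6 had a region at a start site, and the highest mean score among them was 10.3, at Pdgfra.

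The 300 bases at the middle of 7 regions away from start sites are shown, all mm9 and plus strand, with coordinates as the table gives them. The first pair are the largest rise and the largest fall of the comparison away from start sites, near Mocs1 and Mmrn1. The others were chosen for display after their values were seen, from the largest changes among regions with a motif match on either strand. The motifs were a 9-base site of Hnf4 and other nuclear receptors (CAAAGGTCA, higher in EN) and a 7-base Tcf and Lef site (CTTTGAT, lower in EN). Capitals mark these matches, and the pair with the largest changes has none.
Mocs1, chr17:49508353-49508652: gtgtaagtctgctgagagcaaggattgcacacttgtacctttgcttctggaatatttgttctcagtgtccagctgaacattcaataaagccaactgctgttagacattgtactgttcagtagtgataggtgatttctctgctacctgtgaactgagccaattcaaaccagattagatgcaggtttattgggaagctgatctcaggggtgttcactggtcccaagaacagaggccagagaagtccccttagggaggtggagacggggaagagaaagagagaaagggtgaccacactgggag
Mmrn1, chr6:60970685-60970984: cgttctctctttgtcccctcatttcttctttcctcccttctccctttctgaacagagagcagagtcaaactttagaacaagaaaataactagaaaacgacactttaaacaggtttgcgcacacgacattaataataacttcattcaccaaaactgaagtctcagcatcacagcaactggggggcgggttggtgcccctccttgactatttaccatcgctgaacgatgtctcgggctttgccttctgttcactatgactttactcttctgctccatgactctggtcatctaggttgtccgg
Sar1b intron, chr11:51581349-51581648: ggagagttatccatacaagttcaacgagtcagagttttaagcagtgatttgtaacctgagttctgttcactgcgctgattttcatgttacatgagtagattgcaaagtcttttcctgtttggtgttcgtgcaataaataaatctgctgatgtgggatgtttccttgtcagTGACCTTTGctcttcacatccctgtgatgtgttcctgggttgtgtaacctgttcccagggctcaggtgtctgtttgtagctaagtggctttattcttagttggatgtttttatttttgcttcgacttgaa
Nfib intron, chr4:82156767-82157066: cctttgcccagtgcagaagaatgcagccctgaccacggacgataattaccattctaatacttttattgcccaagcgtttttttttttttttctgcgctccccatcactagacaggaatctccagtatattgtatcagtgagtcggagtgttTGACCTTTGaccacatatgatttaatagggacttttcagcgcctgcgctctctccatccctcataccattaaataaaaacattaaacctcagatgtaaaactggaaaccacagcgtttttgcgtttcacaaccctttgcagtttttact
Casp1, chr9:5286641-5286940: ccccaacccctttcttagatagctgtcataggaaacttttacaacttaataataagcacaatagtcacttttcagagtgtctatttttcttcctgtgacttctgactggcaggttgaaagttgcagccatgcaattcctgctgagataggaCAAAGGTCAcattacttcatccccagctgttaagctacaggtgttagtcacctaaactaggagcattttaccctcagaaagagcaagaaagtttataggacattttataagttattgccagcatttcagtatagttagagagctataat
Itga2, chr13:115739184-115739483: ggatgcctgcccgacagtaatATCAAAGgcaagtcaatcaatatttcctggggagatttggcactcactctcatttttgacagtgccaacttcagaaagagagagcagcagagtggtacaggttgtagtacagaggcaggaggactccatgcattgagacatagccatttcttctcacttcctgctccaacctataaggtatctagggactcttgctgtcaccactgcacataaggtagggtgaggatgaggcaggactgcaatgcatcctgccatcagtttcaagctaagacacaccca
Cd44 intron, chr2:102718724-102719023: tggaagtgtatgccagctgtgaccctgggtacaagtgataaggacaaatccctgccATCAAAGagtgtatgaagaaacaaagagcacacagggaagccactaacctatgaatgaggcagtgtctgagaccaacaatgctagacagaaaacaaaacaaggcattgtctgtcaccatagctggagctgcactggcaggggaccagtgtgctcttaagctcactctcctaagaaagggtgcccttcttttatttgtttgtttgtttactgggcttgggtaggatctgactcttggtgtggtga

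H3K27ac differed between EN and CV organoids at a large number of regions in each direction. Of 42883 regions tested (45.4% of all, those with a mean score of at least 5 over the 9 CV, ENR and EN libraries), 5707 were higher in EN (13.3%) and 1929 were lower (4.5%), by limma's moderated test on log2(score + 1) at a Benjamini-Hochberg adjusted p under 0.05. The median log2 difference, EN minus CV, was 1.43 among the former and -1.96 among the latter, against 0.18 over all regions tested, and the median standard error was 0.57. Scores of the 3 EN and the 3 CV libraries did not overlap in 97.1% of the regions called higher and 94.8% of those called lower, against 32.3% of all regions tested. At the adjusted p of 0.001 that the study used for this mark, 988 regions were higher and 106 lower. Leaving out 1 EN library lowered the counts to 3374 higher and 1129 lower (without EN2), 3777 and 1128 (without EN3) or 3091 and 1113 (without EN4).

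The split between gains and losses depended on the scaling of the libraries. Among called regions 74.7% were higher in EN with the scores as deposited, 55.7% after quantile normalization (2903 higher and 2306 lower) and 49.2% after scaling every library to the same sum (2928 higher and 3019 lower). Quantile normalization moved the median difference of all regions from 0.18 to 0.01 and scaling to the same sum moved it to -0.11. A core of 2234 regions was called higher under all 3 scalings (5.21% of those tested) and 1684 were called lower (3.93%). These are called the gained and the lost regions from here on, sets defined after the data had been seen. With every library left out in turn, 1689 of the gained (75.6%) and 543 of the lost regions (32.2%) were called each time.

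Over all regions together the median difference grew with the strength of a region. In the eighth of regions with the lowest mean score, 5.00 to 6.11, the median log2 difference was -0.21, and 1.63% were called higher. In the eighth with the highest mean score, from 76.2, the median was 0.65, and 47.2% were called higher and 1.92% lower. After quantile normalization the median of these strongest regions was 0.10. Regions over 500 bp from a start site kept a positive median there, 0.29 after quantile normalization and 0.49 after scaling to the same sum, beside 0.08 and 0.33 for those at start sites.

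**Figure D1:**
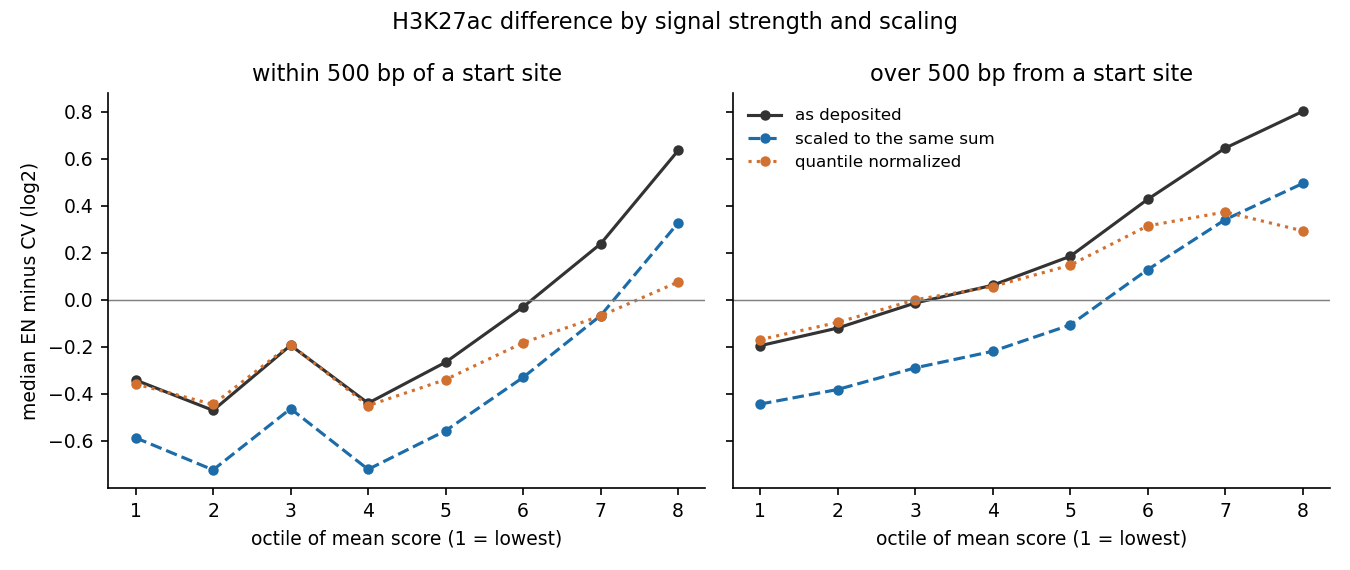
Median log2 difference in H3K27ac, EN minus CV (y axis), in 8 bins of regions ordered by mean score (x axis, 1 is the lowest), at start sites (left) and farther away (right); lines give the scores as deposited, scaled to the same sum and quantile normalized. With the deposited scores the medians rose from bin to bin farther away, from -0.20 to 0.80, while at start sites they lay between -0.47 and -0.03 in the 6 lower bins, without a steady rise, and reached 0.64 in the highest, and quantile normalization took most of the rise at the strongest start sites (to 0.08).

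With regions of every strength together, start sites made up a larger share of the gained and of the lost regions than of all regions tested. Of all regions tested, 29.4% lay within 500 bp of an annotated start site, against 43.5% of the gained and 41.0% of the lost regions. Among the 12622 regions at start sites, 7.69% were gained and 5.47% lost. From 501 to 5000 bp the shares were 6.07% and 2.54% of 6737 regions, so that gains were the more frequent close to genes. Beyond 50000 bp the order turned, with 2.62% gained and 4.80% lost of 6791 regions. Regions between genes and over 500 bp from a start site were gained in 690 of 13878 cases and lost in 463, and those in introns in 529 and 483 of 15067. Gained regions had a median mean score of 43.4 and lost regions one of 16.7, so the 2 sets also differed in strength.

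The largest gain at a start site was at Sis, which encodes sucrase-isomaltase, a disaccharidase of the brush border. The region at chr3:72770494-72770896, over an exon at the start site, scored 2, 6 and 6 in CV, 16, 15 and 15 in ENR and 130, 79 and 153 in EN. The cultures did not overlap, ENR lay between the others, and the log2 difference, EN minus CV, came to 4.47 (standard error 0.45, adjusted p = 5e-06). Reg1, a secreted lectin of the intestinal epithelium, followed at chr6:78376392-78376657, in an intron, with 1, 3 and 3 in CV, 5, 4 and 5 in ENR and 31, 36 and 54 in EN (3.66, standard error 0.55, adjusted p = 0.000162). At Slc47a1, an exporter of organic cations, the region at chr11:61191484-61192437 scored 2, 11 and 20 in CV, 19, 15 and 5 in ENR and 90, 87 and 113 in EN (3.41, standard error 0.58, adjusted p = 0.000481). ENR was close to CV at both. Chrna2, a subunit of nicotinic acetylcholine receptors, had scores of 9, 11 and 20 in CV, 21, 26 and 22 in ENR and 121, 140 and 162 in EN at chr14:66758978-66759905 (3.37, standard error 0.36, adjusted p = 7.15e-06).

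Hnf4g, a nuclear receptor of the enterocyte, gained acetylation at one of its start sites and not at the other. At an internal start site (chr3:3634388-3634884) the scores were 2, 8 and 17 in CV, 20, 13 and 21 in ENR and 105, 49 and 101 in EN, a log2 difference of 3.37 (standard error 0.54, adjusted p = 0.000254). At the stronger region, at chr3:3507704-3509062, they were 37, 66 and 95 in CV, 86, 50 and 55 in ENR and 78, 87 and 79 in EN, and the cultures overlapped (0.40, standard error 0.32, adjusted p = 0.419). The mRNA of Hnf4g rose by 3.52 on the log2 scale (adjusted p = 5.1e-17, edgeR's quasi-likelihood test), from CPM values (counts scaled to library size) of 117 to 128 in CV to 1285 to 1522 in EN. The related Hnf4a had 105, 84 and 110 in CV and 80, 98 and 72 in EN at its start site (-0.26, standard error 0.24, adjusted p = 0.481).

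The largest losses at start sites were at Slc43a1, Tifa, Axin2, Kif26b and Fst. At Axin2, a feedback inhibitor that Wnt signals induce, the intronic region at chr11:108783166-108783529 scored 84, 63 and 49 in CV, 58, 47 and 42 in ENR and 5, 3 and 6 in EN (-3.55, standard error 0.40, adjusted p = 1.02e-05). EN stood apart from both other cultures there. Tifa, an adaptor of NF-kB signalling, had 113, 151 and 126 in CV, 50, 33 and 74 in ENR and 6, 11 and 15 in EN at chr3:127492290-127494101 (-3.56, standard error 0.38, adjusted p = 6.7e-06). Kif26b, a kinesin-family protein, had 76, 41 and 34 in CV, 18, 11 and 26 in ENR and 5, 2 and 3 in EN at chr1:180458173-180459379 (-3.54, standard error 0.51, adjusted p = 9.15e-05). Both fell stepwise from CV over ENR to EN.

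At the other 2 named losses, acetylation was high in CV alone. Slc43a1, an amino acid transporter, scored 52, 80 and 67 in CV, 3, 10 and 16 in ENR and 3, 6 and 5 in EN at chr2:84679635-84681127 (-3.59, standard error 0.54, adjusted p = 0.00015). Fst encodes follistatin, a secreted antagonist of activin, and scored 144, 46 and 115 in CV, 6, 12 and 4 in ENR and 6, 16 and 4 in EN at chr13:115248415-115250112 (-3.46, standard error 0.55, adjusted p = 0.000267). ENR and EN overlapped at both start sites, so these differences were between CV, the culture with both drugs, and the other two. H3K27me3, the mark of Polycomb repression, was higher in EN at Slc43a1 (2.28, adjusted p = 0.0379) and Kif26b (2.36, adjusted p = 0.0433). Only 0.17% of 82899 regions were called higher for that mark and 0.49% lower. Without a trend in the spread 0 regions were called for it, so neither of these calls stood in that run.

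Farther from start sites the largest gain lay between genes, 58820 bp from the nearest start site, of Mocs1, an enzyme of molybdenum cofactor synthesis (chr17:49508138-49508867, whose middle is shown above). It scored 2, 3 and 1 in CV, 16, 8 and 11 in ENR and 76, 58 and 68 in EN (4.56, standard error 0.50, adjusted p = 8.19e-06). ATAC-seq, which measures open chromatin, rose at the same region by 3.02 (adjusted p = 1.73e-07). A region of 201 bases in an intron of Faah, which hydrolyses fatty acid amides, scored 1, 1 and 5 in CV, 6, 6 and 7 in ENR and 40, 48 and 50 in EN (chr4:115661053-115661253, 4.02, standard error 0.56, adjusted p = 7.7e-05). A second region at Gsta1, a glutathione transferase, lay 673 bp from its start site and scored 2, 20 and 14 in CV, 19, 15 and 36 in ENR and 182, 82 and 171 in EN (chr9:78076932-78077790, 3.81, standard error 0.56, adjusted p = 0.000117). The EN libraries lay far above both other cultures in each. The remaining named gains, in introns of Cgref1 (chr5:31246937-31247221, 3.84) and Slc35c2 (chr2:165109968-165110238, 3.72), were 632 and 868 bp from a start site.

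The largest loss away from start sites was 75930 bp from Mmrn1 (chr6:60970400-60971269), with 79, 55 and 59 in CV, 14, 19 and 11 in ENR and 1, 13 and 1 in EN (-4.08, standard error 0.61, adjusted p = 0.000151). A region 195943 bp from the predicted gene Gm12830 scored 61, 53 and 43 in CV, 11, 16 and 21 in ENR and 1, 4 and 4 in EN (chr4:114297756-114298384, -3.84, standard error 0.50, adjusted p = 4.12e-05). The mean of ENR was intermediate at both, and open chromatin fell at both, by 1.38 and 3.17 on the log2 scale. A region 56849 bp from Axin2 scored 14, 17 and 13 in CV, 7, 2 and 6 in ENR and 2, 0 and 0 in EN (chr11:108841344-108841447, -3.43, standard error 0.67, adjusted p = 0.00145). Regions near Crtap (chr9:114276990-114278112, -3.52) and in an intron of Farp1 (chr14:121528210-121528950, -3.39) completed the set. All 20 of these largest changes were called under all 3 scalings.

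The regions shown for their motif matches gave the following scores. The Sar1b intron with CAAAGGTCA, in a gene for a GTPase needed to secrete chylomicrons, scored 2, 12 and 6 in CV, 13, 16 and 11 in ENR and 80, 64 and 74 in EN (3.50). The Nfib intron scored 2, 1 and 6 in CV, 14, 13 and 19 in ENR and 39, 27 and 40 in EN (3.37). The region near Casp1 scored 8, 1 and 6 in CV, 16, 10 and 18 in ENR and 53, 50 and 34 in EN (3.19). Of those with a Tcf and Lef site, the region near the integrin gene Itga2 scored 11, 27 and 23 in CV, 4, 2 and 3 in ENR and 1, 1 and 4 in EN (-2.89), and the Cd44 intron 14, 31 and 20 in CV, 7, 5 and 5 in ENR and 1, 3 and 4 in EN (-2.66). The mean of ENR lay between those of CV and EN at the first 3 and at the Cd44 intron, and ENR overlapped EN near Itga2.

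Genes were then grouped by function, each represented by its strongest region within 500 bp of a start site. Beside each list stand the same counts over all 12622 regions at start sites, of which 3055 were called higher and 721 lower (971 and 691 under all 3 scalings), with a median log2 difference of 0.33. After quantile normalization that median was -0.04. The share called higher was larger at stronger start sites, 46.6% in the eighth with the highest mean scores and 15.5% in the next. Medians of the mean scores were 73.2 in CV and 111 in EN for the absorptive transcription factors. They were 62.7 and 83.0 for the histone acetylation genes and 59.3 and 133.7 for fat absorption. No list was set against start sites of like strength.

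Most stem cell and Wnt target genes lost acetylation. Of 29 start-site regions tested, 17 were lower in EN and 0 higher, all 17 under all 3 scalings, with a median of -1.48. Lgr5, the receptor for R-spondins that marks stem cells of the crypt, scored 92, 71 and 79 in CV, 57, 61 and 69 in ENR and 10, 7 and 9 in EN at chr10:115023230-115024435, with EN apart from both other cultures (-3.08, standard error 0.33, adjusted p = 7.51e-06). Msi1, an RNA-binding protein of stem cells, scored 189, 137 and 185 in CV, 56, 178 and 129 in ENR and 35, 16 and 13 in EN (-3.05, standard error 0.38, adjusted p = 2.52e-05). Ascl2, a transcription factor that maintains stem cells, scored 33, 44 and 62 in CV, 50, 45 and 32 in ENR and 16, 7 and 7 in EN (-2.16, standard error 0.42, adjusted p = 0.00137). ENR overlapped CV at Msi1 and Ascl2 and lay below it at Lgr5. The adhesion receptor Cd44 scored 99, 129 and 92 in CV, 68, 66 and 61 in ENR and 22, 17 and 11 in EN (-2.64, standard error 0.32, adjusted p = 1.86e-05), without overlap between any cultures.

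Other members of the list varied more in size. At the main start site of Axin2 the scores were 303, 188 and 200 in CV, 164, 342 and 276 in ENR and 68, 84 and 81 in EN (-1.53, standard error 0.25, adjusted p = 0.000299), a smaller difference than at the intronic region 204 bp from a start site. The cell cycle gene Ccnd1 differed by -2.93, the receptor gene Tnfrsf19 by -2.70 (not called without EN2 or EN3) and the matrix protein gene Smoc2 by -1.58. Myc, which drives growth, scored 117, 176 and 179 in CV, 134, 109 and 123 in ENR and 61, 87 and 59 in EN (-1.17, standard error 0.24, adjusted p = 0.00231). Sox9, a transcription factor of the crypt, scored 72, 18 and 28 in CV, 47, 45 and 39 in ENR and 37, 35 and 17 in EN, with overlapping cultures (-0.24, standard error 0.44, adjusted p = 0.749), while its mRNA differed by -3.10 (adjusted p = 8.25e-12). All 21 genes of the list with a tested start site and mRNA in the RNA-seq table had less of it in EN. Of all 9288 transcripts tested, 44.0% were called lower there and 37.8% higher. Among 223 regions farther from the start sites of the listed genes 46 were lower (41 under all 3 scalings) and 4 higher, with a median of -0.83. Over the 30198 such regions of all genes 3.99% were lower (3.28% under all 3 scalings) and 8.76% higher, with a median of 0.09.

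**Figure D2:**
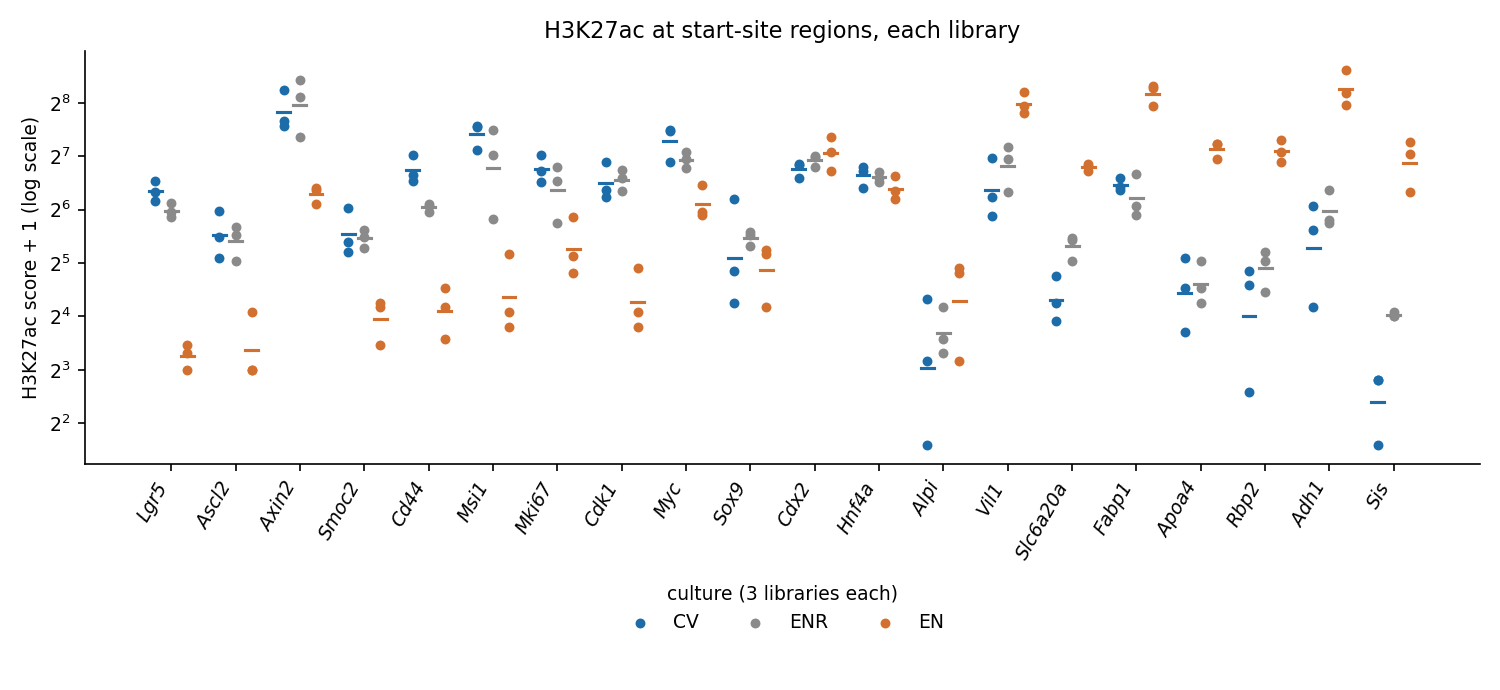
H3K27ac score plus 1 (y axis, log scale) at the strongest start-site region of 20 genes (x axis) in CV, ENR and EN organoids, with a point for each of 3 libraries and a bar at the mean of the log2 values. EN lies below CV from Lgr5 to Myc (Lgr5 7 to 10 against 71 to 92), the cultures overlap at Sox9, Cdx2, Hnf4a and Alpi, and EN lies above CV at Vil1 and from Slc6a20a to Sis.

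Brush border genes rose or did not pass the test. Of 20 regions tested 8 were higher in EN and 0 lower, 4 of them under all 3 scalings and 5 without EN4, and the median was 0.99. Beside Sis these 4 were Mgam, another disaccharidase (2.14, not called without EN4), Vil1, which encodes the actin bundler villin, and Mep1b, a metalloprotease (1.61). Vil1 scored 58, 74 and 124 in CV, 143, 79 and 122 in ENR and 243, 224 and 292 in EN (1.62, standard error 0.27, adjusted p = 0.000372). ENR overlapped CV there. Alpi, the intestinal alkaline phosphatase, scored 2, 19 and 8 in CV, 17, 11 and 9 in ENR and 8, 27 and 29 in EN (1.27, standard error 0.64, adjusted p = 0.179). Anpep, an aminopeptidase, scored 19, 10 and 11 in CV, 8, 4 and 4 in ENR and 11, 17 and 17 in EN (0.19, standard error 0.53, adjusted p = 0.841). EN and CV overlapped at both of these low-scoring start sites, although the mRNA of Alpi rose by 2.02 and that of Anpep by 3.44 on the log2 scale. The mRNA of 19 of the 20 brush border genes with a tested start site was higher in EN. The kinase gene Ptk6 differed by 1.07 (adjusted p = 0.153), and the start site of the keratin gene Krt20 had a mean score under 5.

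Nutrient transporters gave 6 higher and 0 lower of 16 regions tested, all 6 under all 3 scalings, with a median of 0.77. Slc6a19, a carrier of neutral amino acids, scored 11, 12 and 8 in CV, 10, 18 and 13 in ENR and 62, 62 and 42 in EN (2.31, standard error 0.42, adjusted p = 0.000872). The region within 500 bp of the start of the imino acid carrier Slc6a20a, which also lies at a start site annotated to Ccr9, scored 14, 26 and 18 in CV, 43, 42 and 32 in ENR and 112, 115 and 105 in EN (2.499, standard error 0.32, adjusted p = 3.78e-05). ENR resembled CV at the first and lay between the cultures at the second. The anion exchangers Slc26a6 (2.04) and Slc26a3 (1.73) also rose.

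Most fat absorption genes gained acetylation with the deposited scores, 16 higher and 1 lower of 21 genes tested, of which 7 and 1 stood under all 3 scalings (median 1.18, and 0.79 after quantile normalization). Abcg5 and Abcg8 share 1 region (adjusted p = 0.0493), so these are 15 higher of 20 distinct regions. After quantile normalization 8 genes were higher and after scaling to the same sum 7. Without EN2 the count of higher genes was 10 and without EN4 it was 7. Tm6sf2, a membrane protein that promotes lipoprotein secretion, had closely spaced scores of 66, 64 and 66 in CV, 150, 158 and 128 in ENR and 379, 317 and 378 in EN (2.43, standard error 0.19, adjusted p = 1.23e-06). Apoa4, an apolipoprotein of chylomicrons, scored 12, 22 and 33 in CV, 32, 18 and 22 in ENR and 149, 123 and 148 in EN (2.70, standard error 0.37, adjusted p = 6.44e-05). ENR was midway at Tm6sf2 and overlapped CV at Apoa4. Fabp1, a fatty acid carrier, rose by 1.72 and the start site of Sar1b by 1.70. The 1 member that fell was Scarb1, a receptor for high-density lipoprotein (-1.49, not called without CV5, EN2 or EN4), named after its value was seen. Of 88 regions farther from the start sites of the list, 33 were higher and 2 lower (18 and 1 under all 3 scalings), with a median of 1.30. Over the 30198 such regions of all genes 8.76% were called higher and 3.99% lower (4.17% and 3.28% under all 3 scalings).

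Drug and retinoid metabolism genes moved the same way, with 14 of 26 higher and 0 lower, 7 of the 14 under all 3 scalings, and a median of 1.02. The count was 9 without EN2 and 7 without EN4. Rbp2, the retinol carrier of enterocytes, scored 5, 23 and 28 in CV, 32, 21 and 36 in ENR and 157, 117 and 134 in EN (3.08, standard error 0.45, adjusted p = 0.000131). Adh1, an alcohol dehydrogenase that also oxidises retinol, scored 17, 66 and 48 in CV, 81, 55 and 53 in ENR and 289, 249 and 393 in EN (2.97, standard error 0.36, adjusted p = 1.85e-05). Neither gene had an EN library within the range of the other cultures. The start site of Gsta1 rose by 2.61 and that of the cytochrome gene Cyp2c66 by 2.39. The mRNA of 23 of the 26 genes with a tested start site was higher in EN. Outside that count the mRNA of Bco1, without an annotated start site, was lower (-1.61). That of Aldh1a7, whose start site had a mean score under 5, was higher (2.23).

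Transcription factors of the absorptive lineage were called higher in 11 of 22 cases and lower in 0, but only 3 stood under all 3 scalings, and the median of 0.75 went to 0.37 after quantile normalization. The count was 7 without CV4 and 7 without EN4. Nr1i3, a receptor for foreign compounds, scored 41, 21 and 26 in CV, 67, 46 and 40 in ENR and 96, 136 and 135 in EN (2.06, standard error 0.32, adjusted p = 0.000218), with EN apart from both other cultures and ENR overlapping CV. Ppara, which controls fatty acid oxidation, rose by 1.53, and the bile acid receptor gene Nr1h4 by 1.32 with the deposited scores and not after quantile normalization. Cdx2, which specifies the intestine, scored 113, 96 and 115 in CV, 110, 125 and 127 in ENR and 163, 104 and 135 in EN, with overlapping cultures (0.29, standard error 0.22, adjusted p = 0.389).

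Among other transcription regulators that the study names, Foxa2 lost and Sp1 and Zbtb7a gained acetylation. Foxa2, a forkhead factor, scored 137, 117 and 82 in CV, 94, 78 and 53 in ENR and 33, 27 and 23 in EN (-1.96, standard error 0.31, adjusted p = 0.000218). Sp1 scored 71, 113 and 75 in CV, 190, 289 and 234 in ENR and 256, 249 and 272 in EN (1.60, standard error 0.21, adjusted p = 4.42e-05). ENR overlapped EN at Sp1, so that CV was the culture set apart. Zbtb7a rose by 1.79. Zbtb7b (1.28) and Lcor (0.80) were called with the deposited scores and not under all 3 scalings, and Nfkb1 (0.26, adjusted p = 0.37) and E2f4 (0.27, adjusted p = 0.598) did not pass the test.

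Secretory lineages gave few measurable start sites. Of 8 regions at goblet cell genes 0 were called, and Muc2 and Reg4 had no region within 500 bp of a start site. Of 5 at Paneth cell genes 1 was higher, the lipase gene Pnliprp2 (adjusted p = 0.0235, called neither under all 3 scalings nor without EN2 or EN4). Of 20 enteroendocrine genes only 1 had a tested region and of 12 tuft cell genes 2, with Cd24a lower (-0.76, not called without CV4, CV5, EN2 or EN4), and Dclk1 had a mean score under 5. For Muc2, Reg4 and Dclk1 the mRNA in EN lay well above that in CV, with CPM values of 686 to 782 against 2.77 to 3.60 for Muc2. H3K27ac was therefore not tested at the start sites of these genes.

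Replication and mitosis genes fell or did not pass the test. Of 29 regions tested 12 were lower and 0 higher, all 12 under all 3 scalings, with a median of -0.66 (-1.05 after quantile normalization). Cdk1, the kinase that starts mitosis, scored 82, 117 and 74 in CV, 106, 80 and 96 in ENR and 29, 13 and 16 in EN (-2.23, standard error 0.33, adjusted p = 0.000124). Mki67, a protein of dividing cells, scored 129, 91 and 104 in CV, 110, 92 and 53 in ENR and 57, 27 and 34 in EN (-1.49, standard error 0.32, adjusted p = 0.00327). ENR and CV overlapped at both genes. Mcm6, a part of the replicative helicase, differed by -1.73 and Pola1, a subunit of DNA polymerase alpha, by -1.62, a call lost without any 1 of CV3, CV4, EN2, EN3 and EN4. All 25 genes of the list with a tested start site and measured mRNA had less of it in EN. Yet 17 of the 29 start sites did not pass the test for H3K27ac. The count of 12 was 5 without EN3, 7 without EN4 and 4 without a trend in the spread.

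Signalling pathways moved in both directions. Of 16 Notch pathway regions 6 were higher and 3 lower with the deposited scores, but 3 and 4 after quantile normalization and 2 and 6 after scaling to the same sum, so that the balance turned (2 and 3 stood under all 3 scalings). Without EN2 only 1 was lower. Lfng, which modifies Notch receptors, scored 81, 86 and 79 in CV, 90, 82 and 82 in ENR and 23, 18 and 24 in EN (-1.88, standard error 0.28, adjusted p = 0.000156), and the receptor gene Notch3 also fell (-1.71, not called without CV4, CV5, EN2 or EN4). Nrarp, a feedback inhibitor of Notch, scored 46, 26 and 62 in CV, 148, 116 and 121 in ENR and 153, 131 and 109 in EN (1.60, standard error 0.29, adjusted p = 0.000714). Lfng separated EN from the other cultures, whereas Nrarp separated CV from them. Hes1, a target of Notch, rose by 1.78 with the deposited scores, but neither after scaling to the same sum nor without CV3, EN2 or EN4.

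In the BMP pathway, which opposes stem cell renewal along the villus, 5 of 15 regions were higher and 1 lower with the deposited scores. The balance turned with the scaling, since 2 were higher and 3 lower both after quantile normalization and after scaling to the same sum. The count of higher regions was 3 without CV4 or EN2 and 2 without EN3 or EN4, and that of lower regions was 3 without CV3 and 0 without CV5, EN3 or EN4. Under all 3 scalings 2 were higher and 1 lower. Bmp3, a ligand, scored 25, 11 and 59 in CV, 129, 133 and 94 in ENR and 183, 157 and 126 in EN (2.54, standard error 0.39, adjusted p = 0.000193). Smad6, an inhibitor of the pathway, scored 21, 26 and 31 in CV, 89, 74 and 78 in ENR and 69, 84 and 81 in EN (1.56, standard error 0.29, adjusted p = 0.000914). CV was apart from ENR and EN at both, and ENR overlapped EN. The decoy receptor gene Bambi fell (-1.22, not called without CV5, EN3 or EN4), and the ligand gene Bmp2 (1.15) was called with the deposited scores and not under all 3 scalings. The mRNA of Bmp3 rose by 7.64 on the log2 scale.

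Genes of the EGF receptor family gave 4 higher and 4 lower of 17 regions (3 and 4 under all 3 scalings), with 2 lower without EN2 or EN4. Erbb3, a receptor for neuregulins, scored 106, 92 and 63 in CV, 201, 159 and 165 in ENR and 430, 302 and 385 in EN (2.10, standard error 0.21, adjusted p = 5.24e-06). Etv4, a transcription factor downstream of receptor kinases, scored 125, 56 and 76 in CV, 92, 138 and 124 in ENR and 16, 19 and 18 in EN (-2.14, standard error 0.32, adjusted p = 0.000146). Erbb3 rose stepwise from CV over ENR to EN, and Etv4 was low in EN alone. The ligand genes moved apart, Egf up by 2.11 and Areg down by 1.44 on the log2 scale. Of 13 regions of Yap and fetal epithelium genes 5 were lower, all under all 3 scalings, and 1 higher with the deposited scores alone, with a median of -1.14. The tight junction gene Cldn4 scored 68, 27 and 38 in CV, 22, 18 and 20 in ENR and 3, 9 and 12 in EN (-2.39, standard error 0.50, adjusted p = 0.00232). The co-activator gene Wwtr1, which encodes Taz, differed by -1.80, and its DNA-binding partners Tead2 and Tead4 by -1.71 and -1.55. Without EN2 or EN4 neither Tead gene was called and 2 regions of the list were lower, and without EN3 3 were.

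Genes for the proteins that set, read or remove histone acetylation were called higher in 7 of 17 cases and lower in 0, but only Hdac11 stood under all 3 scalings, and the count was 4 without EN3 and 4 without EN4. Hdac11, a histone deacetylase, scored 38, 67 and 79 in CV, 154, 126 and 131 in ENR and 187, 185 and 113 in EN (1.41, standard error 0.27, adjusted p = 0.00145). At this gene CV stood below both cultures grown without valproic acid. Whether the drug had a part in this was not tested. The acetyltransferase gene Crebbp (1.22) and the deacetylase gene Hdac5 (1.38) were called with the deposited scores.

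**Figure D3:**
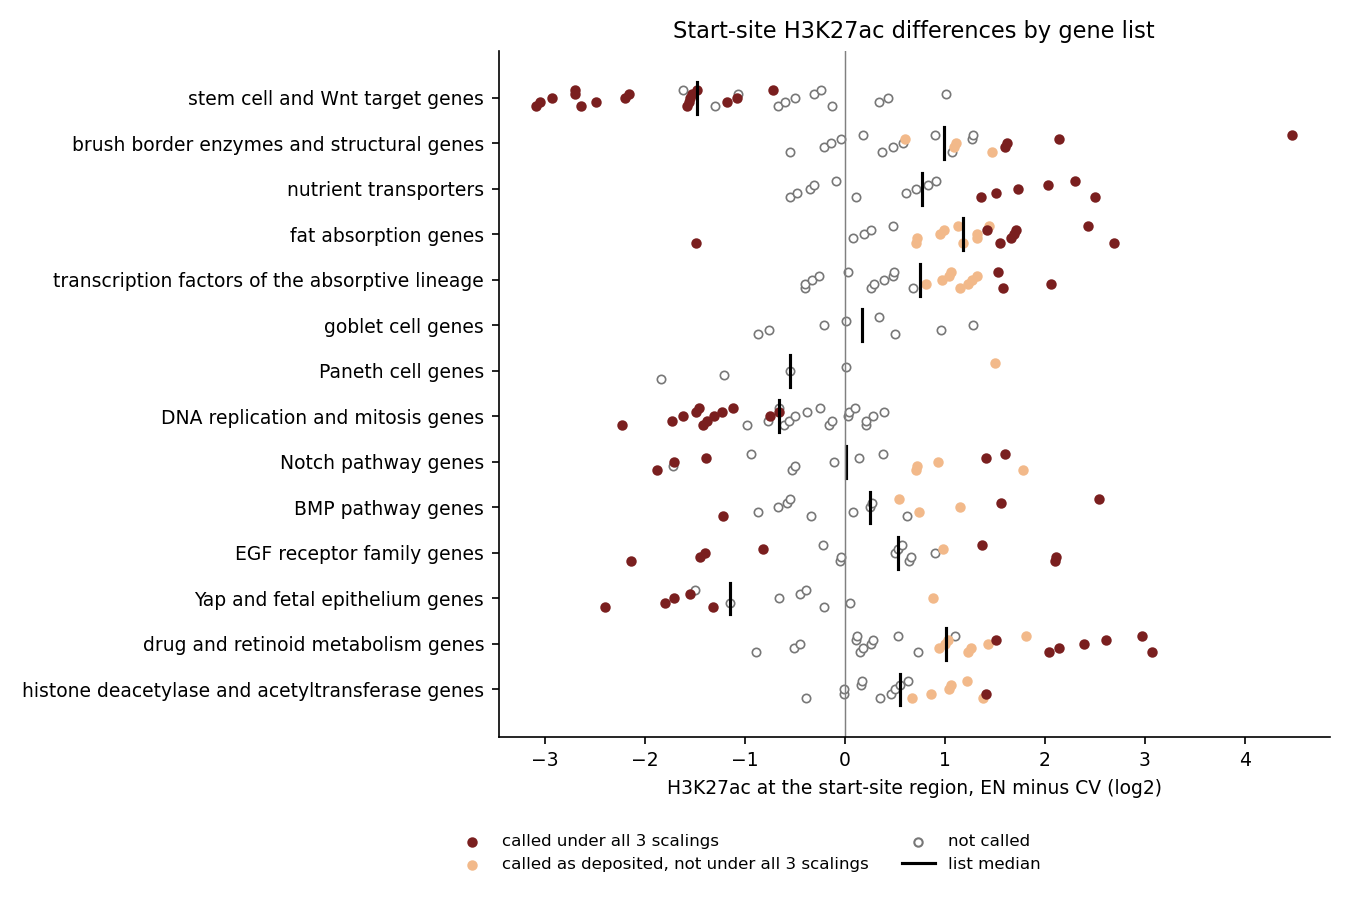
Log2 difference in H3K27ac at the start-site region of each gene, EN minus CV (x axis), for 14 gene lists (y axis), with a point for each gene and a bar at the list median; dark points were called under all 3 scalings, light points with the deposited scores and open points not called. Medians run from -1.48 for stem cell and Wnt target genes to 1.18 for fat absorption genes.

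Several loci carried many changed regions. They were ranked by the count of called regions and not by their share. Of all regions tested 13.3% were called higher and 4.5% lower. Around Myc (chr15), 9 of 30 regions for which it was the nearest gene were lower in EN, 8 of them under all 3 scalings, and the farthest lay 449193 bp from its start site. The strongest loss there, at chr15:61621227-61622142, scored 32, 52 and 42 in CV, 27, 18 and 30 in ENR and 9, 4 and 5 in EN (-2.66, adjusted p = 0.000427), a larger difference than at the start site of Myc. Open chromatin fell by 2.95 on the log2 scale there. Around Axin2 8 of 13 regions were lower, all under all 3 scalings. In addition, 1 region at 88400 bp was higher with the deposited scores (0.66, adjusted p = 0.0481) and not under all 3 scalings. Phlda1, a stem cell gene of the crypt, had 7 of 24 lower (6 under all 3 scalings). Vgll4, a co-factor of Tead proteins, had 7 of 21 lower (5 under all 3 scalings), while the region over its start site at chr6:114918076-114920137 was higher with the deposited scores (0.72, adjusted p = 0.0155) and not under all 3 scalings. Sfi1 had 12 of 36 lower, by 0.81 to 1.34 on the log2 scale, at a locus with near-identical copies in the mouse genome, where reads may be split between copies. A region 62995 bp from Sfi1 was higher by 1.23 with the deposited scores (adjusted p = 0.00995) and not under all 3 scalings.

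The most gained loci were led by Krt19, a keratin of the epithelium, with 11 of 15 regions higher and 0 lower, over chr11:100006316-100030579. The region at chr11:100017960-100018734 scored 51, 20 and 17 in CV, 32, 24 and 45 in ENR and 161, 62 and 140 in EN (2.07, adjusted p = 0.002). Of the 11, 6 stood under all 3 scalings. Irf2 had 10 of 26 higher (3 under all 3 scalings) and 1810011O10Rik 9 of 18 (4). Efna1 and Trim31 had 8 of 11, Eps8l3 8 of 15, Sp3 8 of 18, Isx 8 of 19 and Klf3 8 of 40. Under all 3 scalings 7 stood at Eps8l3, 6 at Trim31, 5 at Isx and 4 each at Klf3 and Sp3. At Efna1, an ephrin ligand, 7 of the 8 stood, and the region at chr3:89103353-89104380 scored 37, 23 and 70 in CV, 74, 57 and 80 in ENR and 280, 201 and 243 in EN (2.58, adjusted p = 2.1e-05). These regions are neighbours and share the libraries, so they are not independent observations of a locus.

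ENR organoids lay between CV and EN over the gained and lost regions as a whole. On the log2 scale with CV at 0 and EN at 1, the median position of ENR was 0.46 over the gained and 0.48 over the lost regions. Among gained regions 58.2% lay between 0.25 and 0.75, 25.4% at or below 0.25, near CV, and 16.4% at or above 0.75, near EN. Among lost regions 48.9% lay between, 26.2% near CV and 24.9% near EN. Lgr5 (0.12) and Apoa4 (0.06) were near CV, Sis (0.36) between, and Smad6 (1.03), Bmp3 (0.85) and Fst (1.04) near EN. The ENR libraries entered the fit that called the regions, and the positions are descriptions.

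The mRNA of the nearest gene moved with H3K27ac, in the larger share for lost start sites. Of 679 genes nearest to a gained start-site region and present in the RNA-seq table, 533 (78.5%) had more mRNA in EN and 66 (9.72%) less, with a median log2 difference of 0.91. Of 333 genes nearest to a lost start-site region, 301 (90.4%) had less and 18 (5.41%) more, with a median of -2.41. Genes at the other start sites tested had more mRNA in 36.8% and less in 47.3% of cases. For gained and lost regions farther away the nearest gene went the same way in 73.7% and 60.4% of cases, and the opposite way in 18.2% and 26.3%. Genes nearest to the other distant regions had more mRNA in 45.8% and less in 39.2% of cases. The RNA-seq table holds only transcripts whose proteins were quantified by mass spectrometry, and the nearest gene need not be the target of a distant region.

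Open chromatin changed less uniformly. Over all regions tested for ATAC-seq, 28.6% were higher and 20.8% lower in EN. Away from start sites 57.2% of gained regions were also more open (5.97% less) and 62.6% of lost regions less open (7.61% more), against 34.8% and 22.6% of the other regions. At start sites 37.5% of gained regions were more open (7.26% less) and 48.8% of lost regions less open (9.27% more). Of the other start sites 24.8% were more and 15.9% less open. The median ATAC-seq difference was 0.62 at gained regions away from start sites and 0.21 at gained start sites.

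H3K4me3, a mark of start sites in use, moved one way with H3K27ac. Of the regions tested for it 7.38% were higher and 7.71% lower. Of 941 gained start-site regions 314 (33.4%) were higher and 0 lower, and of 669 lost ones 302 (45.1%) were lower and 0 higher. In all 3079 regions were called for this mark, 5768 without its EN1 library, and 1012 to 1633 without its CV2, CV3, CV4 or EN2 library. H3K27me3 was higher at 15 of 631 lost start sites (2.38%) and lower at 0, and was called at 0 of 736 gained start sites. Of 9223 other start sites 0.163% were higher and 0.0434% lower, so the gained start sites lay near that share. In all 547 regions were called for H3K27me3, 118 to 269 without its CV1, CV2, CV3, EN1 or EN4 library, and 0 without a trend in the spread.

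**Figure D4:**
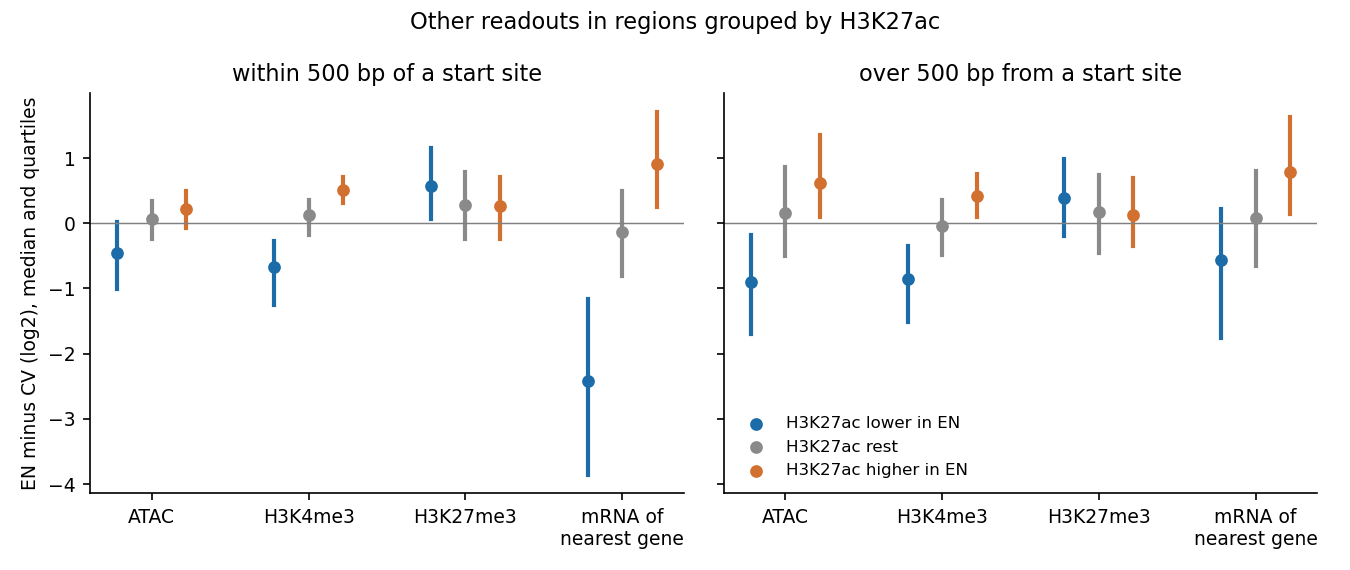
Log2 differences, EN minus CV (y axis), in ATAC-seq, H3K4me3, H3K27me3 and the mRNA of the nearest gene (x axis) for lost, other and gained H3K27ac regions at start sites (left) and farther away (right); points are medians and bars run from the lower to the upper quartile. At start sites the mRNA medians were -2.41, -0.13 and 0.91, while H3K27me3 medians were highest at lost regions (0.58).

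Binding of Hnf4g was measured by ChIPmentation in 1 library per culture, so no test was possible, and the depth within the regions differed widely (84340 reads in CV, 352600 in ENR and 1816497 in EN). Within the EN library, gained regions away from start sites held a mean of 56.5 reads, lost regions 12.2 and all such regions tested 22.3. At start sites the means were 135, 51.2 and 76.4. Gained regions were also the more strongly acetylated (median mean score away from start sites 24.6, against 12 for lost and 10 for all), and the part of region strength in these read counts was not tested.

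Short sequence motifs were counted on both strands in the 300 bases at the middle of each region, and a match is a description of the sequence only. Any of 3 spellings of an Hnf4 site (CAAAGTCCA, CAAAGGTCA and CAAAGTTCA) was found in 148 of 1258 gained regions away from start sites (11.8%), in 42 of 992 lost regions (4.23%) and in 2368 of all 30198 such regions (7.84%). CAAAGTTCA and CAAAGGTCA were added after a first count, and CAAAGGTCA is also a site of other nuclear receptors. Among windows with 40 to 50% G and C the shares were 14.5%, 6.46% and 9.44%. At start sites they were 2.37%, 0.434% and 1.40%. The share in gained regions was above, and that in lost regions below, the share in all regions of the same class.

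Away from start sites, shares of the other motifs lay closer together, apart from the Gata site. The Tcf and Lef site CTTTGAT was in 6.52% of gained, 6.45% of lost and 6.18% of all regions away from start sites. The AP-1 site TGANTCA was in 18.4%, 20.2% and 19.6%, and the Foxa site TGTTTAC in 6.36%, 6.75% and 6.19%. The Gata site AGATAA was in 23.2% of gained, 16.3% of lost and 21.9% of all. Among windows with 40 to 50% G and C these shares were 28.5%, 23.1% and 26.2%. Shares for the Cdx site TTTATGG were 5.33%, 5.85% and 6.12%, and for the Tead site CATTCCA 6.04%, 5.95% and 5.95%. The Sp and Klf site GGGCGGG was in 8.03%, 8.77% and 7.48%, and the Myc and Max site CACGTG in 6.68%, 7.76% and 7.25%. The Ets site CCGGAAGT and the E2f site TTTGGCGC were in under 1% of regions in every set away from start sites. A window without these letters says nothing of whether a factor was bound.

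**Figure D5:**
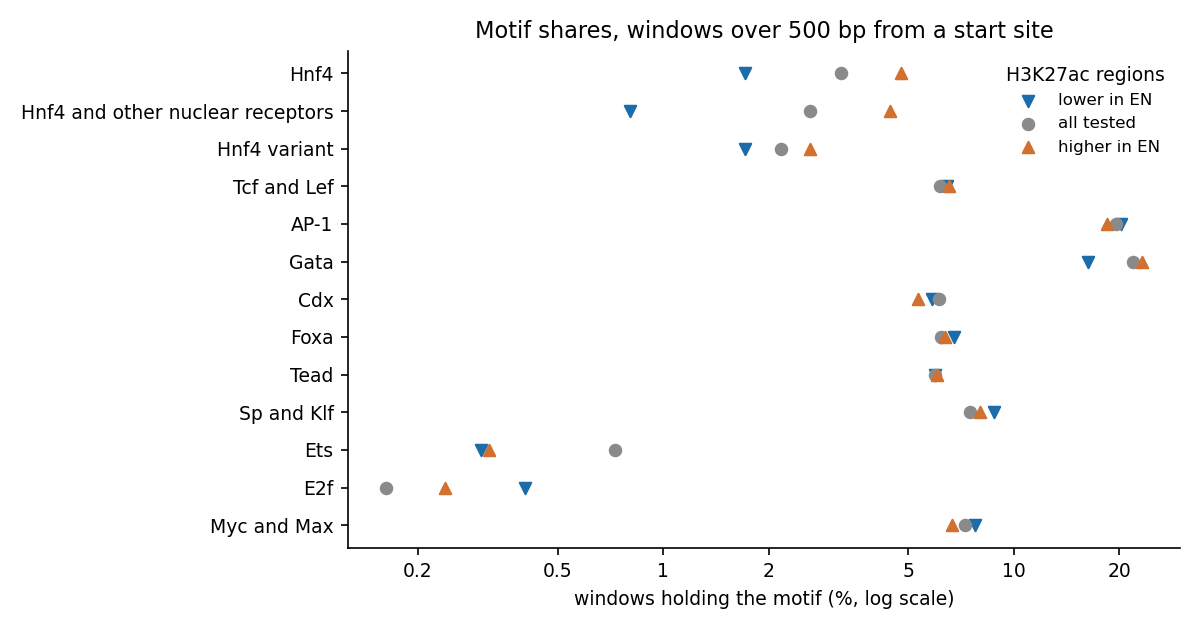
Share of 300-base windows away from start sites that hold each motif (x axis, percent, log scale) for 13 motifs (y axis) in lost, all tested and gained H3K27ac regions. The 3 Hnf4 spellings run from lost over all tested to gained (1.71%, 3.22% and 4.77% for CAAAGTCCA), and the Tcf and Lef shares lie together near 6%.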

How the data were processed

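H3K27ac was measured by ChIPmentation in the 3 CV, 3 ENR and 3 EN libraries of the score table. The authors aligned reads with BWA to mm9, removed duplicates with Picard, called peaks with MACS2 2.0 and deposited, for each region of the union of peaks, a normalized score rounded to whole numbers. How the scores were scaled is not given in the sources used here, and they hold no read depth. For Hnf4g the authors deposited unscaled read counts per region. For RNA-seq they deposited expected counts of kallisto (the submitters' processing notes and the study's methods give different versions of it), which were rounded here, beside its TPM values. The authors deposited these TPM values as kallisto scaled them, and neither they nor the copy numbers entered a result here.

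Regions with a mean score of at least 5 were fitted with limma 3.58.1 (R 4.3.3) on log2(score + 1), a pseudocount of 1, with culture as the only term in the 9 libraries and with the prior variance following the mean score. The study's DESeq2 counts were not at hand for this mark, so limma took their place. ATAC-seq (12 libraries), H3K4me3 and H3K27me3 (9 each) were fitted in the same way (H3K27me3 had been scored over extended regions, per the file headers), and transcripts above 0 in at least 4 of 12 libraries with edgeR 4.0.16 (quasi-likelihood, TMM). P-values were adjusted by Benjamini-Hochberg over all features tested and called under 0.05. Fold changes on the log2(score + 1) scale understate changes of low scores. The scripts were tested on simulated data. With 200 of 42883 simulated H3K27ac regions changed, the test recovered 0% of 2-fold, 22% of 4-fold and 59.5% of 8-fold changes. Fewer regions were changed there than were called here, so these shares need not hold for the real scores. A region that did not pass the test may still differ.

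Start sites came from GENCODE vM1 on mm9, and a region belonged to a start site within 500 bp. Regions were named as the 5 largest rises and falls among called regions without overlap of EN and CV, at start sites and farther away. Genes were named as up to 4 called genes with the largest difference per list and the genes that the study names, and loci as the 5 genes with the most called regions in each direction, ties included. Some genes that these rules name are not reported here, though the list counts include them. Members, gene lists and tests were chosen with earlier results of these data known. Alternatives changed the trend, pseudocount, filter, scaling, threshold, libraries, block and weights. The 4 further H3K27ac samples (2 CV, 1 EN and 1 ENR) were not used here. Figures and motif counts were made in Python 3.11.15 with matplotlib 3.10.9.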

Additional observations from a re-analysis of the deposited data

How the results depend on the processing

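The scores as deposited leave EN libraries with larger sums, and the size of the change of the strongest regions as a group depended on this scaling. In the eighth with the highest mean score the median was 0.65 as deposited, 0.10 after quantile normalization and 0.34 after scaling to the same sum. Among the 89 named regions and genes, none that was called changed direction in any alternative run. Regions given only as parts of a locus were outside this check. Of these, the region 88400 bp from Axin2 went from 0.66 to -0.011 after quantile normalization. Without a trend in the spread 4379 regions were called (2874 higher), and at an adjusted p under 0.001, 1094 (988 higher and 106 lower). Quantile normalization gave 2903 higher, and scaling to the same sum 2928 higher and 3019 lower. Leaving out 1 library gave 4204 to 7578 called, 3091 to 5863 higher and 1113 to 1715 lower. The share of regions called higher that lay within 500 bp of a start site, 53.5%, was 40.9% without a trend, 51.0% with a pseudocount of 5, 55.3% for regions above 0 in at least 3 libraries, 57.0% with a mean score of at least 10, 55.4% with no filter, 36.6% after quantile normalization, 73.6% at an adjusted p under 0.001 and 52.2% to 63.4% with 1 library left out. For regions called lower, 37.4%, the same alternatives gave 29.8%, 34.3%, 31.6%, 49.5%, 31.7%, 51.5%, 73.6% and 32.2% to 43.4%, with 24.4% under a replicate block and 39.9% under array weights. The median difference of all regions, 0.18, was -0.14 for regions above 0 in at least 3 libraries and with no filter, which let in low scores, 0.35 with a mean score of at least 10, 0.011 after quantile normalization and -0.11 after scaling to the same sum. For H3K4me3 the replicate block gave 1751 calls, and leaving out 1 library gave 1012 to 5768. For H3K27me3 no trend gave 0 calls, quantile normalization 156, the block 176, and leaving out 1 library 118 to 605. The causes were not tested. Deviations from the culture mean of same-numbered H3K27ac libraries correlated at -0.08 to 0.11 over 5 pairs, and the labels do not say that a number marks a shared culture, so the libraries share only a number. With the replicate number as a block 5281 regions were higher and 2029 lower. Over the 89 named regions and genes and all alternatives together, the call or its absence was kept 1390 times, a call was lost 120 times and gained 1 time.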
